A study of Mus musculus with 4 samples.

Results

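The 10 genes described here encode the class I major histocompatibility complex (MHC) molecule and the proteins that load it with peptide: *B2m*, *H2-K1*, *H2-D1*, *H2-T23*, *Tap1*, *Tap2*, *Tapbp*, *Tapbpl*, *Erap1* and *Nlrc5*. They were chosen by gene symbol, and all 10 were found among the 24537 genes of the RNA-Seq tables. They were followed in group 2 innate lymphoid cells (ILC2s), tissue lymphocytes that lack antigen receptors and release type 2 cytokines, which were taken from bronchoalveolar lavage (BAL) fluid 1 day after the final challenge. In 2 libraries the mice had received IL-33, an alarmin cytokine that stimulates ILC2s directly, as 3 doses of 0.5 µg given every other day through the nose or the trachea. In the other 2 libraries they had received house dust mite extract (HDM), 25 µg through the nose 3 times a week for 5 weeks, and these are called chronic HDM-stimulated ILC2s.

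All mice were GATIR mice on a C57BL/6 background, about 8 to 16 weeks of age, in which a YFP reporter follows the coding part of *Gata3*, so that the cells could be sorted as Lineage-Sca-1+YFP+. The labels give the IL-33 mice 2 reporter alleles (Gata3-YFP/YFP) and the HDM mice 1 (Gata3-YFP/WT), and they name the populations CD25High and CD25Low, whereas the methods of the study mention only homozygous mice and no CD25 gate for this sort. Stimulus, its duration, genotype and CD25 label therefore cannot be told apart in any difference below. The sex of the mice is not given, and *Xist* and some Y-linked genes differed between the groups. Sex therefore cannot be told apart from these either. The number of mice behind a library is not given, so that p-values measure the spread between 2 libraries a group, which may be technical.

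A class I molecule consists of a polymorphic heavy chain bound to β2-microglobulin, and it shows peptides made inside the cell to CD8+ T cells and to receptors of natural killer (NK) cells. Peptides cut by the proteasome are pumped into the endoplasmic reticulum by the TAP transporter, trimmed by aminopeptidases, and fitted to the heavy chain with the help of tapasin. Transcription of these genes is known to respond to interferon, to NF-κB and to the transactivator NLRC5. It acts at a conserved promoter module that includes the X2 and Y boxes.

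The promoters of the genes on which the results turn are shown so that the letters they share can be set beside their levels. Each is the stretch just before the transcription start in RefSeq, on GRCm38.p6, which is the mm10 build of the files, and the start was the one in the files for each gene printed. The capitals mark letters of an interferon-stimulated response element (ISRE, searched as TTTCNNTTTC), the NF-κB consensus, and TGACG followed after 10 to 30 bases by ATTGG. The last pair stands for the X2 and Y boxes, and all were searched on both strands. The stretches lie at chr2:122147437-122147686 (+ strand) for *B2m*, chr17:36032702-36032951 (- strand) for *H2-T23*, chr17:34000334-34000583 (- strand) for *H2-K1* and chr17:35262844-35263093 (+ strand) for *H2-D1*, each 250 bases long. For *Tap1* the 225 bases at chr17:34187331-34187555 (+ strand) are the whole space between its start and that of *Psmb9*, an immunoproteasome gene transcribed in the opposite direction.
B2m: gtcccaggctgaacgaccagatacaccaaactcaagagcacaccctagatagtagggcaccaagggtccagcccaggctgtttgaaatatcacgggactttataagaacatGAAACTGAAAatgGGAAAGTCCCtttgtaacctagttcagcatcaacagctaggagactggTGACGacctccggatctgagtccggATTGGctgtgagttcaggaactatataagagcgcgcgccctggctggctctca
H2-T23: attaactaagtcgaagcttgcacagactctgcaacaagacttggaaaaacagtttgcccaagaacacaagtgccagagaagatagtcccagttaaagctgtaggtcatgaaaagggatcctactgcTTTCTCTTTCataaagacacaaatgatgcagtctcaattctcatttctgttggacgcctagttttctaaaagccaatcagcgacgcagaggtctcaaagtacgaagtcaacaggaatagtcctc
H2-K1: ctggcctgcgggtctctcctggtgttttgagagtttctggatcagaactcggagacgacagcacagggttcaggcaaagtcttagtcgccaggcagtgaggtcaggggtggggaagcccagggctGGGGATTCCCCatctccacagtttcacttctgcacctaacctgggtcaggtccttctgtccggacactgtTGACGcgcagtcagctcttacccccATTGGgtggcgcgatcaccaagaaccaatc
H2-D1: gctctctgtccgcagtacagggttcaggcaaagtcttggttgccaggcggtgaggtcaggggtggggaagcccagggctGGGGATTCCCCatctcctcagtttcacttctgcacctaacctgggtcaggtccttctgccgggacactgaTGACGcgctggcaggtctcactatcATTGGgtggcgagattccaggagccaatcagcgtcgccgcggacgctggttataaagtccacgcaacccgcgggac
Tap1: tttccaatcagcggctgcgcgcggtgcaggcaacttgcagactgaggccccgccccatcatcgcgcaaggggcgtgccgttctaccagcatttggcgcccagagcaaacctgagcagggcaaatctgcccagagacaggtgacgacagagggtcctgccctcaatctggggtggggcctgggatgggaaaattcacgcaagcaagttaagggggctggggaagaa

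The promoter table held 7 of the 10 genes, and *Tap2*, *Tapbpl* and *Nlrc5* were not among them. The X2 and Y box letters occurred in *B2m*, *H2-K1* and *H2-D1*, that is in 3 of these 7. Of all 32851 promoter stretches of 250 bases, 0.642% held these letters. In *B2m* they began 78 bases before the start, in *H2-K1* 55 bases and in *H2-D1* 101 bases. The NF-κB consensus was found in the same 3 genes and in 3.9% of all stretches, and in *H2-K1* and *H2-D1* a pair of overlapping matches covered the same letters. The ISRE letters were found in *B2m*, as GAAACTGAAA 139 to 130 bases before the start, and in *H2-T23*, as TTTCTCTTTC 124 to 115 bases before it, and in 2.98% of all stretches. The search was strict and misses close variants. *H2-K1* and *H2-D1* both hold the near match tttcacttct after their NF-κB letters, so they are not shown to lack such an element. ATTGG, on either strand and with or without TGACG near it, was found in 6 of the 7 genes and in 33.8% of all stretches, and in *H2-T23* it lay on the other strand 52 to 48 bases before the start. None of the marked matches to different motifs overlapped each other. No interferon-γ activated site (GAS, searched as TTCNNNGAA, present in 7.02% of all stretches) was found in the 7, which says only that these letters are not in these windows.

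Values are RPKM, reads scaled to the exon length of a gene and to the reads mapped in the library, and can therefore be compared between genes. The libraries held 10696039 to 16092308 reads in genes, and genes averaging under 2 RPKM were left out, so that 9523 were tested with all 10 among them. Reads of 45S ribosomal RNA (*Rn45s*) took 4.95% and 3.45% of the gene reads in the IL-33 libraries, against 17.4% and 25.4% in the chronic HDM libraries, and over the 9523 genes the log2 fold change had a median of 0.28 towards IL-33. Scaling without these reads moved that median to 0.03, so that each log2 fold change below stands against 0.28 rather than 0. The IL-33 libraries were more alike than the chronic HDM libraries, with a median absolute log2 difference within the group of 0.23 against 0.57 over all genes tested. For the 10 genes it was 0.18 and 0.10.

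All 14 ILC2 markers had reads in every library, among them *Il1rl1* (77.3 and 79.9 RPKM in the IL-33 libraries, 217 and 205 in the others). *Il2ra*, which encodes CD25, stood at 432 and 376 RPKM against 27.6 and 22, as the CD25 labels have it, *Gata3*, the gene with the reporter, at 14.9 and 18.9 against 216 and 195, and *Il5*, a type 2 cytokine, at 738 and 626 against 151 and 145. Macrophage and dendritic cell markers had reads for 7 to 10 of 12 genes and summed to 1251 and 291 RPKM after IL-33 and to 3099 and 8505 after chronic HDM, mostly *Lyz2* and *Chil3*, and no gene of this list was called. Of the genes of the sorted-out CD11b and CD11c, *Itgam* was at 0 in 3 libraries and at 0.152 RPKM in the other one, and *Itgax* stood at 2.56 and 0.853 RPKM against 3.27 and 7.17. *Adgre1*, which encodes F4/80, stood at 0 and 0.026 RPKM against 9.25 and 3.43. Epithelial markers summed to 13.9 and 5.16 RPKM against 21.5 and 73.6. The chronic HDM sums came mostly from *Epcam* in replicate 1 (21.5) and *Scgb1a1* in replicate 2 (64.6). *Krt18* (4.28 and 2.88 against 0 and 0) and *Sftpc* (4.32 and 0 against 0 and 0) went the other way. Eosinophil, basophil and mast cell markers summed to 54.4 and 45.6 against 7.46 and 5.96, mostly *Mcpt8* (45.8 and 39.2 against 0 and 0), a basophil protease gene that was called. *Ms4a1* and *Pax5* of B cells and *Cd4*, *Cd8a*, *Cd8b1* and *Cd5* of T cells had no read in any library, but *Cd79b* stood at 38.4 and 27.4 RPKM against 8.74 and 6.67 and *Cd3g* at 76 and 101 against 68.8 and 83.3, while *Cd3d* and *Cd3e* were at 2.83 RPKM or less. NK cell markers summed to between 0 and 2.7 RPKM and overlapped between the groups. *Xist*, expressed from the inactive X chromosome of females, stood at 0 and 0.014 RPKM against 7.62 and 10.2. The Y-linked *Eif2s3y* had reads in all 4 libraries and overlapped between the groups. *Ddx3y*, also Y-linked, was lower after chronic HDM, at 15.7 and 13.8 RPKM against 7.09 and 5.55. So were *Uty* (3.58 and 3.29 against 0.1 and 0.906) and *Kdm5d* (2.19 and 3.19 against 0.067 and 1.41). The macrophage, epithelial and basophil sums, *Cd79b*, *Xist*, *Ddx3y*, *Uty* and *Kdm5d* did not overlap between the groups. Their part in the results below was not tested.

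The 10 genes did not move as a block. *H2-T23* and *B2m* lay higher in chronic HDM-stimulated ILC2s, *Tap1*, *Nlrc5* and *Erap1* lay higher in IL-33-stimulated ILC2s, and the classical heavy chains *H2-K1* and *H2-D1* stayed within 1.1-fold between group means. In such bulk libraries a change in the share of cells that express a gene and a change in RNA per cell cannot be told apart. A gene was called when its adjusted p in limma was under 0.01 and its log2 fold change was beyond 1 in either direction. By this rule 1 of the 10, *H2-T23*, was called as higher after chronic HDM, where 0.536% of all genes tested were called, and 0 of the 10 were called as higher after IL-33, where 2.8% were. At an unadjusted p under 0.05, limma gave 3 of the 10 higher after IL-33, against 25.5% of all genes tested, and 2 higher after chronic HDM, against 11.2%, and limma-voom on recovered reads called 0 in either direction. The libraries of the 2 groups did not overlap for 3 of the 10 genes higher after IL-33, against 41.7% of all genes tested, and for 3 higher after chronic HDM, against 23.5%. Set against the median of all genes, the log2 difference, IL-33 minus chronic HDM, was -1.75 for *H2-T23*, -1.11 for *B2m*, 1.01 for *Tap1*, 0.73 for *Nlrc5* and 0.36 for *Erap1*.

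**Figure D1:**
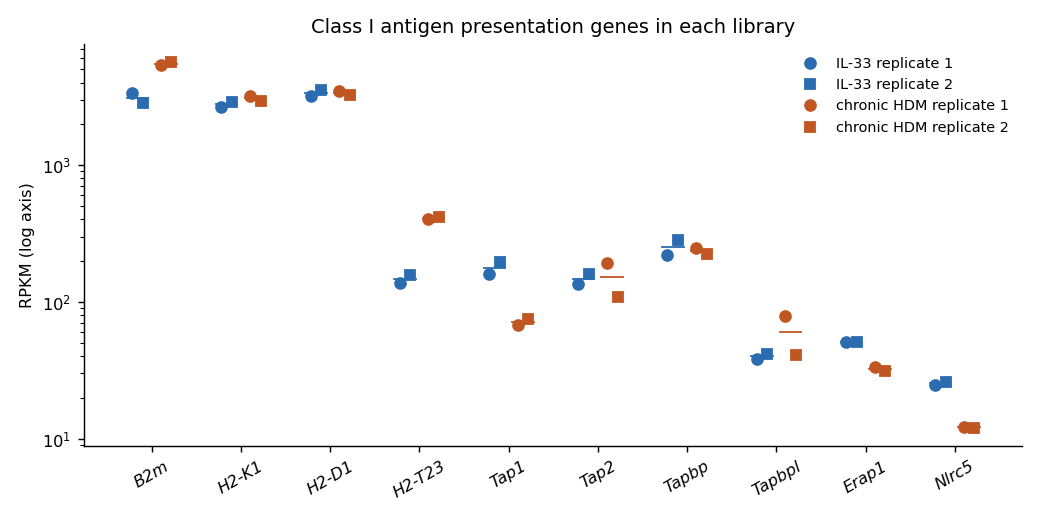
RPKM on a log axis of the 10 genes in the 4 libraries (blue, IL-33; orange, chronic HDM; circles, replicate 1; squares, replicate 2), with a line at the mean of each group. *B2m*, *H2-K1* and *H2-D1* lie at 2658 RPKM or higher in every library, and *Nlrc5* lies lowest, between 12 and 25.9 RPKM.

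The light chain and the classical heavy chains were among the most abundant transcripts of these cells. *B2m*, *H2-K1* and *H2-D1* ranked between 3 and 8 among all genes in each library, and they made up 91% to 92.9% of the summed RPKM of the 10 genes. That sum was 9960 and 10188 RPKM after IL-33 and 13075 and 12744 in the chronic HDM libraries, or 2.15% and 2.25% against 3.67% and 3.79% of all RPKM outside 45S ribosomal RNA. After IL-33 the order was *H2-D1*, *B2m*, *H2-K1*, with overlapping libraries between neighbours, and after chronic HDM it was *B2m*, *H2-D1*, *H2-K1*, with none. Below them, the libraries of *Tap1*, *Tap2* and *H2-T23* overlapped between neighbours after IL-33, and those of *Tap1* and *Tapbpl* after chronic HDM. The other neighbours in the order of group means did not overlap.

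*B2m* encodes β2-microglobulin, the light chain of every class I molecule, at chr2:122147687-122153082. It stood at 3364 and 2846 RPKM after IL-33 and at 5370 and 5626 RPKM after chronic HDM, so that both chronic HDM libraries were above both IL-33 libraries. The group means were 3105 ± 366 and 5498 ± 180 RPKM (SD, n = 2), a 1.77-fold higher level after chronic HDM. On the log2 scale the difference, IL-33 minus chronic HDM, was -0.83 (SE 0.12, 95% interval -1.14 to -0.52, limma adjusted p = 0.0133), which did not pass the call and shrank to -0.37 (adjusted p = 0.213) with quantile normalization. No window of 51 bases, the length of a read, in its transcript occurred in another gene.

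*H2-K1* and *H2-D1* encode the classical heavy chains that present peptide to CD8+ T cells, and they lie at chr17:33996012-34000333 and chr17:35263094-35267497. *H2-K1* stood at 2658 and 2886 RPKM after IL-33 and at 3183 and 2938 after chronic HDM. The groups just failed to overlap, and the log2 difference was -0.14 (95% interval -0.43 to 0.15, limma adjusted p = 0.417). *H2-D1* stood at 3171 and 3541 RPKM after IL-33 and at 3486 and 3270 after chronic HDM. Its libraries overlapped, and the log2 difference was -0.01 (95% interval -0.30 to 0.28, limma adjusted p = 0.957), an interval that holds 0 and does not reach the size of the difference in *H2-T23*. Both differences lay below the median of all genes tested, by 0.43 and 0.29, and scaling without 45S ribosomal RNA gave -0.43 and -0.30. Of the 51-base windows of *H2-K1* 8.22% occurred in other genes and of those of *H2-D1* 13.7%, and the row *H2-L* covers the locus of *H2-D1*, so that reads may have been split or shared among them.

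*H2-T23*, at chr17:36029977-36032701, encodes the heavy chain of Qa-1, a nonclassical class I molecule that carries mainly leader peptides of other class I molecules and is bound by the CD94/NKG2A receptor. It stood at 137 and 158 RPKM after IL-33 and at 402 and 417 RPKM after chronic HDM, without overlap and with a large gap between the groups. The means were 148 ± 15 and 410 ± 10.6 RPKM (SD, n = 2), a 2.78-fold higher level after chronic HDM. The log2 difference was -1.47 (SE 0.17, 95% interval -1.89 to -1.06, limma adjusted p = 0.00816), which passed the call. Its rank among all genes was 671 and 531 in the IL-33 libraries and 84 and 80 in the chronic HDM libraries. The summed macrophage and dendritic cell markers were higher after chronic HDM too, at 1251 and 291 RPKM against 3099 and 8505, and their part in this difference was not tested. Reads of this gene can come from relatives, since 29% of its 51-base windows occurred in other genes, most often in *H2-T-ps*. The call was lost without IL-33 replicate 1 (-1.37) and without IL-33 replicate 2 (-1.57), fits that leave a single IL-33 library. With every library kept, it was lost with a pseudocount of 0.1 (limma adjusted p = 0.0156) and without a minimum RPKM (0.0358). It was also lost without the intensity trend (0.0433) and with limma-voom (0.0166). Under these settings no gene of the whole table was called. It was lost by a narrow margin when 45S ribosomal RNA was left out of the scaling (-1.76, limma adjusted p = 0.0104).

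**Figure D2:**
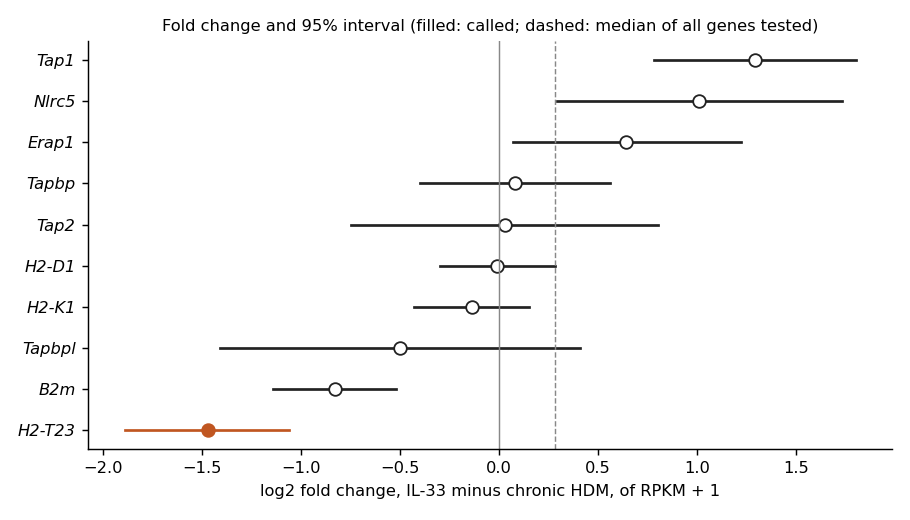
Log2 fold change (IL-33 minus chronic HDM, of RPKM + 1) of each of the 10 genes, with its 95% interval from limma; the filled point is called, and the dashed line marks the median of all genes tested (0.28). *H2-T23* lies at -1.47 and *Tap1* at 1.29, and the intervals of *H2-K1*, *H2-D1*, *Tap2*, *Tapbp* and *Tapbpl* include 0.

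*Tap1* and *Tap2* encode the 2 subunits of the TAP transporter and lie at chr17:34187556-34197225 and chr17:34204479-34216321, with *Psmb8* of the immunoproteasome between them. *Tap1* stood at 160 and 195 RPKM after IL-33 and at 68.1 and 75.5 RPKM after chronic HDM, with both IL-33 libraries well above both chronic HDM libraries. The means, 177 ± 24.6 and 71.8 ± 5.2 RPKM (SD, n = 2), differed 2.47-fold. The log2 difference was 1.29 (SE 0.20, 95% interval 0.78 to 1.80, limma adjusted p = 0.0149), which did not pass the call. *Tap1* was called when only genes averaging 5 RPKM or more were tested (adjusted p = 0.00998), and its difference fell to 0.78 (adjusted p = 0.0766) with quantile normalization.

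*Tap2* stood at 135 and 161 RPKM after IL-33 and at 193 and 109 RPKM after chronic HDM. The chronic HDM libraries lay on either side of the IL-33 libraries, 1.78-fold apart, and the log2 difference was 0.03 (95% interval -0.75 to 0.80, limma adjusted p = 0.957). The interval is wide, and the sign turned to -0.26 when 45S ribosomal RNA was left out of the scaling. Of the windows of *Tap2* 12.4% occurred in other genes, most often in *Gm15821*, which also shared 0.936% of the windows of *Tap1*.

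*Tapbp* encodes tapasin, which bridges TAP and the heavy chain in the peptide-loading complex, and *Tapbpl* encodes its relative TAPBPR, a peptide editor outside that complex. *Tapbp* (chr17:33919478-33929290) stood at 221 and 282 RPKM after IL-33 and at 247 and 224 after chronic HDM, with overlapping libraries and a log2 difference of 0.08 (95% interval -0.40 to 0.56, limma adjusted p = 0.789) that turned to -0.21 with scaling without 45S ribosomal RNA. *Tapbpl* (chr6:125224212-125231860) stood at 38.3 and 41.5 RPKM after IL-33 and at 79.4 and 40.6 after chronic HDM. Only chronic HDM replicate 1 stood apart there, and the log2 difference was -0.50 (95% interval -1.41 to 0.41, limma adjusted p = 0.365). It was -0.03 without chronic HDM replicate 1 and -0.98 without chronic HDM replicate 2.

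*Erap1* encodes the aminopeptidase of the endoplasmic reticulum that trims peptides to the length class I holds, at chr13:74639872-74691875. It stood at 51.3 and 50.9 RPKM after IL-33 and at 33.2 and 31.5 RPKM after chronic HDM. The groups did not overlap and each was tight, and the means were 1.58-fold apart, with a log2 difference of 0.64 (95% interval 0.07 to 1.22, limma adjusted p = 0.106) that shrank to 0.23 with quantile normalization. Of its 51-base windows 14% occurred in *Cast*, the neighbouring gene.

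*Nlrc5* encodes the transactivator of class I genes, at chr8:94472763-94527272, and was the least abundant of the 10 in both groups. It stood at 24.8 and 25.9 RPKM after IL-33 and at 12.1 and 12 RPKM after chronic HDM. The libraries of each group were nearly equal and the groups lay 2.1-fold apart, with a log2 difference of 1.01 (SE 0.29, 95% interval 0.29 to 1.73, limma adjusted p = 0.0619) that did not pass the call. No window of its transcript occurred in another gene. *B2m*, *H2-K1* and *H2-D1*, whose promoters hold the X2 and Y box letters shown above, had log2 differences of -0.83, -0.14 and -0.01. The other genes with a promoter stretch, *H2-T23*, *Tapbp*, *Tap1* and *Erap1*, had -1.47, 0.08, 1.29 and 0.64. Whether any of these differences follows *Nlrc5* was not tested.

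Ratios of 2 genes within a library do not depend on a factor that scales the whole library. Quantile normalization is not such a factor and changes their size. With it the log2 differences of *H2-T23* and *B2m* were -1.97 and -0.37, against -1.47 and -0.83 as reported. The ratios below are of RPKM and are given as descriptions, since 2 libraries against 2 cannot give an exact two-sided permutation p below 0.333. *H2-K1* over *B2m* was 0.79 and 1.01 after IL-33 and 0.593 and 0.522 in the chronic HDM libraries, and *H2-D1* over *B2m* was 0.943 and 1.24 against 0.649 and 0.581. The light chain transcript thus exceeded each classical heavy chain transcript in both chronic HDM libraries, while after IL-33 the ratios lay on both sides of 1. *H2-T23* over the sum of *H2-K1* and *H2-D1* was 0.0235 and 0.0246 after IL-33 and 0.0603 and 0.0672 in the chronic HDM libraries, and over *B2m* it was 0.0407 and 0.0556 against 0.0749 and 0.0742. *H2-T23* was therefore higher in both chronic HDM libraries relative to either denominator. *H2-D1* over *H2-K1* moved little, from 1.19 and 1.23 to 1.1 and 1.11.

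The subunits of the transporter shifted against each other. *Tap1* over *Tap2* was 1.18 and 1.21 after IL-33 and 0.353 and 0.695 in the chronic HDM libraries, where *Tap2* differed 1.78-fold between the libraries. *Tap1* over *Psmb9*, the gene that starts 225 bases away in the promoter printed above, was 1.44 and 1.57 after IL-33 and 0.569 and 0.65 in the chronic HDM libraries. *Psmb9*, named here for its position and after its values were seen, stood at 111 and 124 RPKM after IL-33 and at 120 and 116 RPKM after chronic HDM (log2 difference -0.01, 95% interval -0.47 to 0.45). *Tapbpl* over *Tapbp* was 0.173 and 0.147 against 0.321 and 0.181, with most of the gap from chronic HDM replicate 1.

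**Figure D3:**
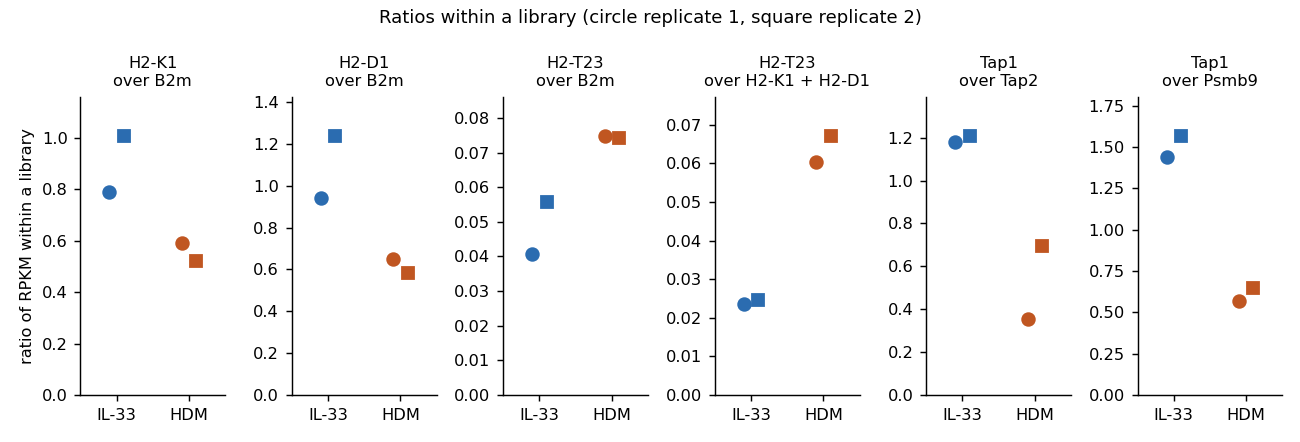
Ratios of RPKM within each library, on axes that start at 0 (blue, IL-33; orange, chronic HDM; circles, replicate 1; squares, replicate 2). The groups do not overlap in any of the 6 ratios, which share genes and are not separate observations. Of all single genes tested, 41.7% did not overlap and were higher after IL-33, and 23.5% did not overlap and were higher after chronic HDM. *H2-T23* over the sum of *H2-K1* and *H2-D1* lies at 0.0235 and 0.0246 after IL-33 and at 0.0603 and 0.0672 after chronic HDM.

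Other class I and class I-like heavy chains numbered 30 in the tables, of which 16 were tested, with a median log2 difference of -0.63 beside 0.28 over all genes tested and 0.01 over the 10 genes. Of the 16, 1 was called as higher after chronic HDM, against 0.536% of all genes tested, and 0 as higher after IL-33, against 2.8%. At an unadjusted p under 0.05 in limma there were 8, against 36.7% of all genes tested. The 8 are not 8 separate loci, since *H2-Q6* and *H2-Q8* cover 1 locus and *H2-Q7* and *H2-Q9* another, and 1 of them, the nonclassical *H2-M3*, lay on the IL-33 side (115 and 97.6 RPKM against 58.3 and 76, adjusted p = 0.103). The called row was *H2-K2*, annotated as a transcribed pseudogene in GENCODE, at 12.2 and 13.4 RPKM after IL-33 and 105 and 79.1 in the chronic HDM libraries (log2 difference -2.74, limma adjusted p = 0.00696). *H2-Q7*, a nonclassical Qa-2 heavy chain, stood at 312 and 307 RPKM against 545 and 519, and *H2-Q9* at 254 and 253 against 458 and 431, neither past the call (adjusted p = 0.0205 and 0.0206). *H2-L* followed *H2-D1*, at 3050 and 3489 RPKM against 3232 and 2993. These rows are uncertain, because *H2-L* covers the locus of *H2-D1*, the rows of *H2-Q7* and *H2-Q9* overlap, and so do those of *H2-T9* and *H2-T22*. The median over the 16 therefore counts some loci more than once. In addition, 19.3% of the windows of *H2-Q7* and 10.6% of those of *H2-K2* occurred in other genes.

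Genes for folding and quality control in the endoplasmic reticulum lay on the IL-33 side. Of 15 tested, 3 were called as higher after IL-33, against 2.8% of all genes tested, and 0 as higher after chronic HDM, against 0.536%. The median log2 difference was 1.19. The 3 calls became 1 with quantile normalization or median-of-ratios scaling and 0 with scaling without 45S ribosomal RNA or without either IL-33 library, and 8 and 9 without chronic HDM replicate 1 and 2. *Hspa5*, which encodes the chaperone BiP, stood at 865 and 756 RPKM after IL-33 and at 205 and 208 after chronic HDM (1.96, limma adjusted p = 0.00687). *Sec61a1*, the channel through which heavy chains enter the reticulum, stood at 281 and 272 RPKM against 76.7 and 90 (1.72, adjusted p = 0.00733), and *P4hb*, a disulphide isomerase, was the third, at 458 and 454 against 207 and 191. *Pdia3*, which encodes the ERp57 of the loading complex, stood at 766 and 780 RPKM against 262 and 355 and did not pass the call (1.34, adjusted p = 0.0121). These proteins also serve the folding of secreted proteins in general.

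Genes of peptide supply, the proteasome and cytosolic peptidases, had a median log2 difference of 0.41. Of 20 tested, 1 was called as higher after IL-33, against 2.8% of all genes tested, and 0 as higher after chronic HDM, against 0.536%. The called gene was *Blmh*, a cytosolic aminopeptidase, at 98.8 and 83.4 RPKM after IL-33 and 15.9 and 19.5 in the chronic HDM libraries (2.30, limma adjusted p = 0.00795), and 0 genes were called under each of the 3 other scalings or without either IL-33 library, against 4 and 7 without chronic HDM replicate 1 and 2. *Psmb8*, an immunoproteasome subunit, stood at 742 and 778 RPKM against 452 and 410 (0.82, adjusted p = 0.0182), and *Psmb6*, the constitutive subunit that the product of *Psmb9* replaces, at 350 and 311 against 145 and 159 (1.12, adjusted p = 0.0135). *Psme1*, a subunit of the PA28 activator, stood at 291 and 303 RPKM in one group and 271 and 303 in the other (0.05).

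Interferon signalling genes and transcription factors of class I promoters had a median log2 difference of -0.03 over 23 tested genes. In each direction 1 was called, against 2.8% of all genes tested towards IL-33 and 0.536% towards chronic HDM. The call towards IL-33 was lost under quantile normalization, median-of-ratios scaling and scaling without 45S ribosomal RNA, and the call towards chronic HDM under the first and the last of these. Both were lost without either IL-33 library, and 2 and 5 genes were called in each direction without chronic HDM replicate 1 and 2. *Nfkb1*, which encodes the p50 subunit of NF-κB, stood at 167 and 175 RPKM after IL-33 and at 43.4 and 41.5 after chronic HDM (1.98, limma adjusted p = 0.00687). *Relb*, of the noncanonical NF-κB pathway, went the other way, at 19.1 and 20.8 RPKM against 80 and 80.2 (-1.95, adjusted p = 0.00905). *Ifngr1* and *Jak1*, of the interferon-γ receptor and its kinase, overlapped between groups, at 186 and 252 RPKM against 231 and 136, and at 125 and 123 against 136 and 96.4. *Irf1*, an interferon-responsive factor named after its values were seen, stood at 55.7 and 57.5 RPKM against 109 and 87.9 (adjusted p = 0.0597), on the side of *B2m* and *H2-T23* over the same 4 libraries.

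**Figure D4:**
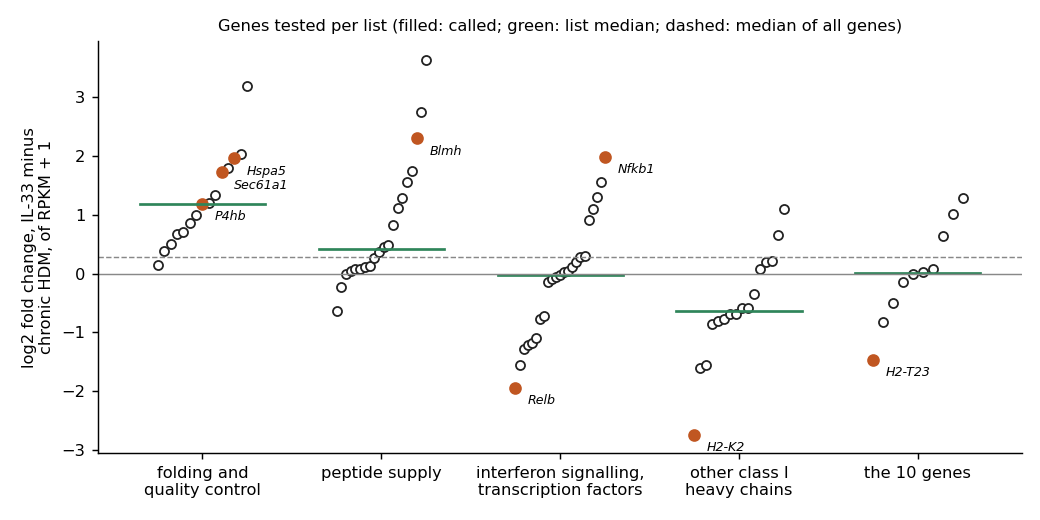
Log2 difference (IL-33 minus chronic HDM, of RPKM + 1) of every tested gene in 4 lists and of the 10 genes, sorted within each list; filled points are called and named, green lines are list medians, and the dashed line is the median of all genes tested (0.28). All 15 folding genes lie above 0, as do 5797 of the 9523 genes tested, with a median of 1.19 for the folding genes. The other heavy chains have a median of -0.63, over rows of which some share a locus.

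Apart from *Lilrb4a*, receptors from families that bind class I or class I-like molecules were scarce in these cells. Of the 22, 15 had no read in any library, among them all 10 Ly49 genes (*Klra*) of the list. *Klrc1*, which encodes NKG2A, had no read, and *Klrd1*, which encodes its partner CD94 in binding the product of *H2-T23*, had 1.21 RPKM in chronic HDM replicate 1 alone. Of the 3 tested, 1 was called as higher after chronic HDM, against 0.536% of all genes tested. It was *Lilrb4a*, an inhibitory immunoglobulin-like receptor, at 93.6 and 84.6 RPKM against 454 and 355 (-2.16, limma adjusted p = 0.00687). Macrophage markers were higher after chronic HDM too. *Klrk1*, which encodes NKG2D, stood at 0 and 0.672 RPKM against 8.78 and 7.6, *Pirb* at 0.225 and 0 against 2.53 and 7.86, and *Cd160* at 1.65 and 1.12 against 0 and 1.97.

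The directions of *H2-T23*, *B2m*, *Tapbpl*, *Tap1*, *Erap1* and *Nlrc5* held in all 18 alternative ways of processing the tables, with log2 differences of -1.97 to -1.37, -1.12 to -0.37, -0.98 to -0.03, 0.78 to 1.43, 0.23 to 0.68 and 0.74 to 1.06. Several of the alternatives change only the genes tested, the variances, the weights, the block or the thresholds, and these left the log2 differences as they were. *H2-K1* ranged from -0.43 to 0.00. *H2-D1*, *Tap2* and *Tapbp* changed sign in 3, 6 and 5 of them. Of the 14 alternatives that keep all 4 libraries, *H2-T23* was called in 9 and *Tap1* in 3, and none of the other 8 genes was called in any. An adjusted p under 0.05 and no minimum fold change only loosen the rule, so *H2-T23* could not lose its call there.

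**Figure D5:**
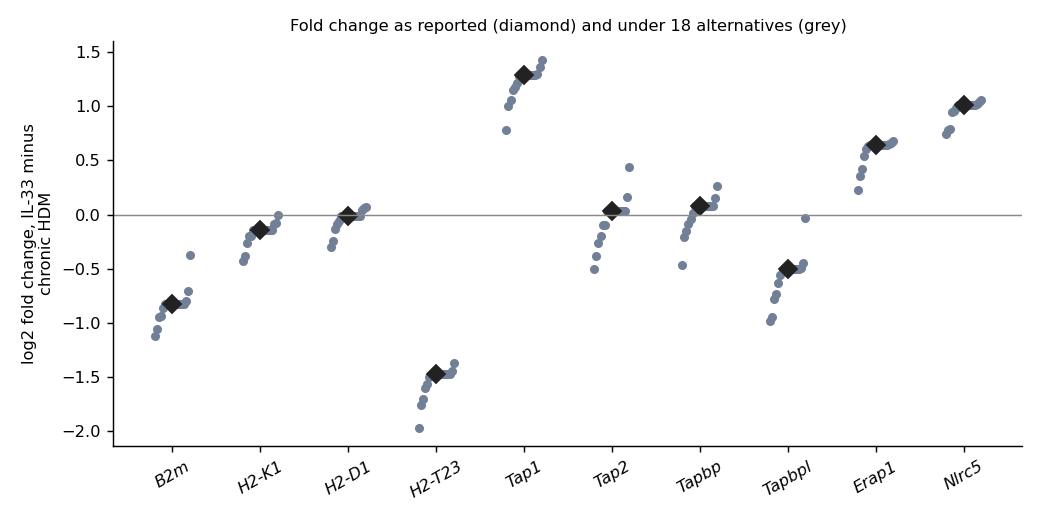
Log2 difference (IL-33 minus chronic HDM) of each gene as reported (diamonds) and under 18 alternatives (grey points, sorted within each gene). *H2-T23* stays between -1.97 and -1.37 and *Tap1* between 0.78 and 1.43, and the points of *H2-D1*, *Tap2* and *Tapbp* fall on both sides of 0.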

How the data were processed

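Per the labels and the methods of the study, RNA of sorted BAL fluid ILC2s was extracted with the RNeasy Micro kit, made into Smart-seq2 libraries and sequenced as single reads of 51 bases. The authors aligned reads to mm10 with HISAT2 2.0.4 and used HOMER to make the deposited RPKM of each gene, 1 table per library. The values are RPKM and not counts, so limma 3.58.1 in R 4.3.3 took the place of the DESeq2 test of the study, on log2(RPKM + 1) with an intensity trend, over the genes averaging 2 RPKM or more and with Benjamini-Hochberg adjustment over all of them. The thresholds (adjusted p under 0.01, log2 fold change over 1) are those of the study. A fold change on this scale understates the change of low genes.

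Whole reads were recovered from the steps of the RPKM values (99.8% to 100% of values whole within 0.1 reads) for depth and for limma-voom as an alternative. Fits were tested on simulated data. The 10 genes, the lists, the alternatives and the rule for named genes were chosen with earlier results of these data known. All 10 genes are described, and of each list of related genes the called ones by size, up to 4, filled up with the most abundant, while marker lists are given by sums and by markers chosen after their values were seen. Of the listed genes 1 had no row. Windows of 51 bases were matched to GENCODE M21 transcripts, and promoters come from RefSeq. Smart-seq2 libraries do not mark strand, so overlapping genes cannot be told apart. Sequencing depth was 10696039 to 16092308 gene reads. Figures were drawn with matplotlib 3.10.9. Some listed genes are not reported here.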

Additional observations from a re-analysis of the deposited data

How the results depend on the processing

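The study, which used DESeq2 with the same thresholds, called more genes in each direction than the limma fit reported here. In that limma fit, 267 genes were called as higher after IL-33 and 51 as higher after chronic HDM. These counts became 0 and 0 with a pseudocount of 0.1, without a minimum RPKM, without the intensity trend and with limma-voom on recovered reads, 502 and 107 with a mean of at least 5 RPKM, 692 and 143 with a weight per library, and 1311 and 455 at an adjusted p under 0.05. Under those settings with no call, 3277, 4013, 3327 and 3052 genes had an unadjusted p under 0.05. Quantile normalization, median-of-ratios scaling and scaling without 45S ribosomal RNA gave 48, 85 and 55 genes higher after IL-33 (54.5%, 68% and 65.5% of the calls, against 84% as reported), the last with 29 higher after chronic HDM. With the replicate block the counts were 987 and 267. The deviations of same-numbered libraries correlated at -0.04, which cannot show whether the libraries were handled in pairs. Leaving out 1 library gave 0 to 1872 genes higher after IL-33 and 0 to 598 higher after chronic HDM, with 0 without either IL-33 library, 1556 and 385 without chronic HDM replicate 1 and 1872 and 598 without chronic HDM replicate 2, where the lone library is assumed to vary like the IL-33 libraries.

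Of the 10 genes, those called as higher after chronic HDM went from 1 to 0 with a pseudocount of 0.1, without a minimum RPKM, without the intensity trend, with limma-voom and with scaling without 45S ribosomal RNA, and ranged from 0 to 1 when a library was left out. Those called as higher after IL-33 went from 0 to 1 (*Tap1*) with a mean of at least 5 RPKM, with the replicate block and at an adjusted p under 0.05, and ranged from 0 to 1 when a library was left out. The median of the 10 moved from 0.01 to -0.28 with scaling without 45S ribosomal RNA. Signs changed for *H2-D1* (0.06 with quantile normalization, and -0.09 to 0.07 when a library was left out), for *Tap2* (-0.50 with quantile normalization, -0.20 with median-of-ratios scaling, -0.26 without 45S ribosomal RNA, -0.10 with limma-voom, and -0.38 to 0.44 when a library was left out) and for *Tapbp* (-0.47, -0.15, -0.21 and -0.04 in the same 4 settings, and -0.09 to 0.26 when a library was left out). The cause was not tested. Of 468 counts of called genes in the other lists, 355 were within 1.5 times of the reported count and 63 fell to 0. The 355 include counts that were 0 as reported and stayed at 0, as in most marker lists. They are therefore no measure of how stable the calls were. The 10 genes had 1005 to 115680 reads in each library.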
